A study of Rattus norvegicus with 4 samples.

Results

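*Hif1a*, the oxygen-regulated subunit of hypoxia inducible factor 1 (HIF-1), and 9 genes that this factor is known to activate were examined in rat liver under inhalational anesthesia. The genes were chosen by symbol as a set of known members of the pathway. The choice was made with earlier results of these data known, but without use of the values of the members. Of the 10 symbols, 9 had a row in the tables (*Hif1a*, *Egln3*, *Vegfa*, *Adm*, *Slc2a1*, *Pfkfb3*, *Bnip3*, *Ndrg1*, and *Ankrd37*) among 16992 genes in all. *Egln1* was not analysed here. Wild type male Wistar rats bought at 6 weeks of age were used, and total RNA of the left lateral lobe was sequenced from 4 livers, each from a different condition. Rats inhaled sevoflurane (4.5%) or desflurane (6%) for 6 hours, and the control of each agent inhaled the same agent for less than 1 minute until the loss of consciousness. All rats received the agent in 50% oxygen through a nose cone and breathed spontaneously, and the oxygen saturation was kept at 98% or higher. Food and water were withheld for 2 hours before anesthesia, and the 6 hour rats then spent 6 hours under the agent. They were thus longer without food than the controls, and time without food and the anesthesia cannot be told apart. The controls were also exposed to an agent, and no liver without any anesthesia was analysed here. Because each condition has 1 library, differences could not be set against replicate error, and p-values are not given. The difference between the 2 control livers is the only comparison of libraries in the same state, and each 6 hour library was compared with both controls.

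HIF-1 is a transcription factor whose alpha subunit is made continuously and destroyed when oxygen is sufficient. Prolyl hydroxylases of the EGLN family use oxygen to mark the alpha subunit for the VHL ubiquitin ligase, and low oxygen stops this mark so that the subunit pairs with ARNT and binds hypoxia response elements with the core ACGTG or GCGTG. The regulation acts mainly on the protein, so the *Hif1a* transcript need not move when the factor is active, and its targets (glucose uptake and glycolysis, vessel growth, mitophagy, and the hydroxylases themselves) are the usual readout in RNA. Oxygen falls along the liver lobule from the portal tract to the central vein. Several targets, including *Igfbp1* and *Plin2*, also respond to fasting, stress hormones, or fatty acids.

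The promoter letters are shown because the members differ in whether the response element core lies close to the gene start. The RefSeq windows (build GRCr8) were searched over the 250 bases before the start, on both strands, for ACGTG and GCGTG. The palindrome CACGTG counts on both strands. Of the 9 measured members, 8 matched a window (all but *Ndrg1*), and 5 of these 8 held at least 1 core (*Hif1a*, *Slc2a1*, *Pfkfb3*, *Bnip3*, and *Ankrd37*), compared with 36.7% of all 33469 windows. ACGTG alone was present in the same 5 members and in 16.6% of all windows. The windows of *Egln3*, *Vegfa*, and *Adm* held neither sequence within these 250 bases. The following 4 windows belong to *Ankrd37* and *Bnip3*, which had higher TPM values in both 6 hour livers than in both controls, and to *Slc2a1* and *Pfkfb3*, which did not. They read 5′ to 3′ on the strand of the gene, with the cores in capitals.
Ankrd37 (chr16:53001257-53001506, plus strand): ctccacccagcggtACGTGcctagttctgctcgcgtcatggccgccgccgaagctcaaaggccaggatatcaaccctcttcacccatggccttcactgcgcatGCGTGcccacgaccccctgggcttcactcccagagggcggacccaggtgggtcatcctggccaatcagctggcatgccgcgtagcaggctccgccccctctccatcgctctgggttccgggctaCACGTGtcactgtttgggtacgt
Bnip3 (chr1:203154963-203155212, minus strand): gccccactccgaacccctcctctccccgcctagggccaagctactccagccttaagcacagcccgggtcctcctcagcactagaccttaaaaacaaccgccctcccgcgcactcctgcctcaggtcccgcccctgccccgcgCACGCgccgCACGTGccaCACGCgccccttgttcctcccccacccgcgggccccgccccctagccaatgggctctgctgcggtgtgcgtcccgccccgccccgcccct
Slc2a1 (chr5:138002272-138002521, plus strand): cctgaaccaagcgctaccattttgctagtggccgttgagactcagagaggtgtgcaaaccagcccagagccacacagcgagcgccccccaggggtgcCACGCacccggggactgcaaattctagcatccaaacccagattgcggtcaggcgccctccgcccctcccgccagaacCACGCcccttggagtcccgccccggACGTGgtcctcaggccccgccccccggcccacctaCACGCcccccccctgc
Pfkfb3 (chr17:71944683-71944932, plus strand): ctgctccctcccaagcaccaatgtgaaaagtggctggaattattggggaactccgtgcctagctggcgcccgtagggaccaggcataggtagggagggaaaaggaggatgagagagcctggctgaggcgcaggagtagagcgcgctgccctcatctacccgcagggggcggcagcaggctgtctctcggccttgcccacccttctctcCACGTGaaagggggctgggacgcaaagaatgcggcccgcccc
*Ankrd37* held cores beginning 236, 147, and 22 bases before the start on the strand of the gene, the last within a CACGTG palindrome. The 4 matches in *Bnip3* formed 3 blocks within a stretch from 108 to 86 bases before the start, the middle block again being CACGTG. *Slc2a1* held 1 ACGTG 51 bases before the start and 3 GCGTG matches on the opposite strand, and *Pfkfb3* held a single CACGTG at 42 bases. A match to these letters is a description and not evidence of binding, and members with cores were found among those with higher and those with lower TPM values.

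The expression unit was TPM, which is scaled for gene length and library size, so that levels can be compared between genes. Aligned sequence amounted to between 4.47 and 5.40 Gb per library. Hepatocyte markers defined the tissue, with *Alb* between 77519 and 92912 TPM. The sevoflurane control stood apart in RNA of the exocrine pancreas. *Prss1*, *Ctrb1*, and *Pnlip* had TPM values of 6.58, 8.94, and 3.45 there and were listed at 0 in the other 3 libraries. The 9 measured Kupffer cell and macrophage markers (of 10 listed) added up to 665 TPM in the control and 426 TPM in the 6 hour liver of sevoflurane, and to 518 and 631 TPM in those of desflurane, and none of the 9 was at 0. In bulk tissue, fewer cells of a type and less RNA per cell cannot be told apart. Red cell markers were in sum lower in the 6 hour liver than in the control with both agents (9 of 11 markers measured, with *Hbe1* at 0 in all libraries). They added up to 124 TPM in the control and 88.3 TPM in the 6 hour liver of sevoflurane, and to 92.5 and 52.8 TPM in those of desflurane. With each agent, 6 were lower and 2 higher. Of all genes above 2 TPM in both libraries, 42.9% were lower with sevoflurane and 33.2% with desflurane. A general shift was present, since the median log2 change of 9136 genes above 2 TPM throughout was 0.05 for sevoflurane and 0.12 for desflurane, and changes with desflurane should be compared with the latter value.

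None of the members that could be judged was upregulated or downregulated by either agent. The rule followed the study and asked for a TPM value above 2 in whichever library was higher, together with a change exceeding 2-fold against the control of the same agent. Of the 9 measured members, 7 were expressed highly enough to be judged (all but *Egln3* and *Ankrd37*). With sevoflurane, 0 of these 7 were upregulated and 0 downregulated, compared with 2.23% and 3.3% of the 9754 genes judged. With desflurane the counts were again 0 and 0 of 7, compared with 2.79% and 1.48% of 9855 genes. Beside these low background shares, a count of 0 of 7 does not set the members apart. The median log2 change of the 7 members was -0.09 with sevoflurane and 0.04 with desflurane, and over all genes judged it was 0.05 and 0.12. Exchanging the controls between the agents left the counts at 0 of 7, where 2.52% and 2.59% (sevoflurane) and 2.84% and 1.58% (desflurane) of all genes judged were upregulated and downregulated.

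**Figure D1:**
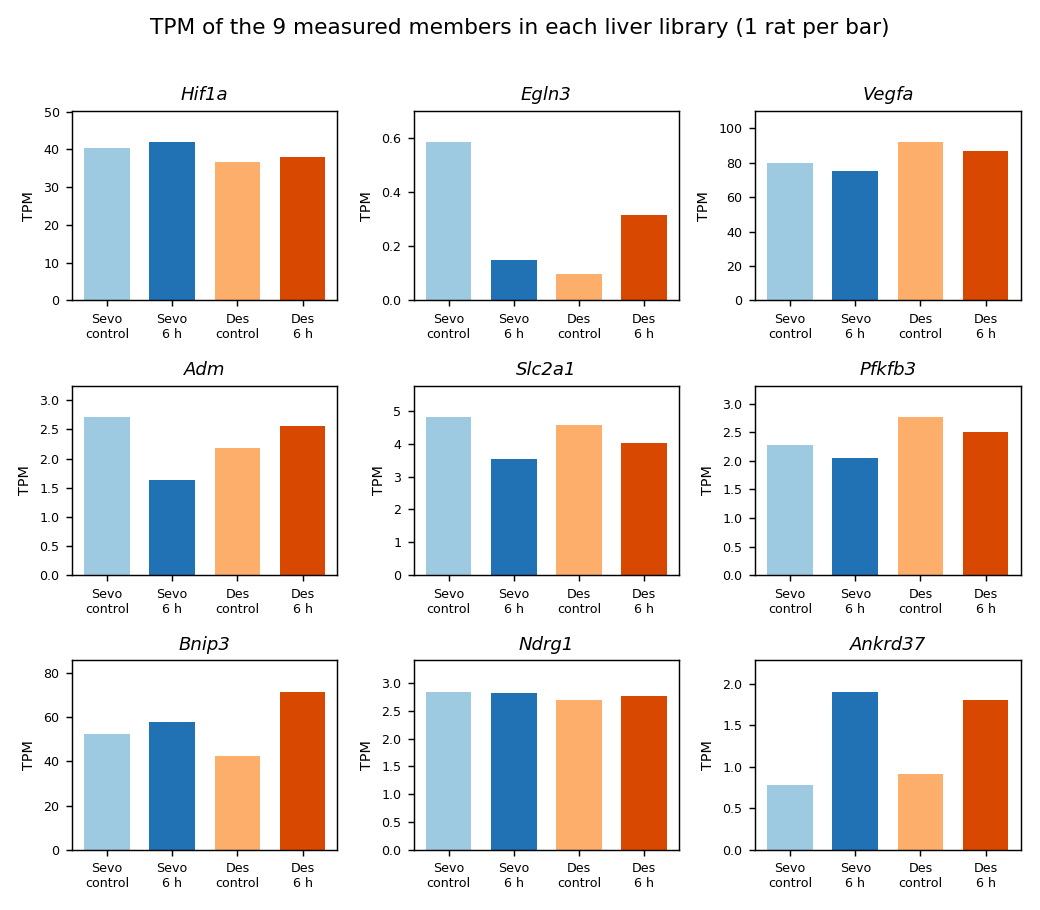
TPM values (vertical axes, linear and starting at 0, with a separate scale per gene) of the 9 measured members in the 4 liver libraries, with 1 rat per bar. *Ankrd37* and *Bnip3* were higher in both 6 hour libraries than in both controls, *Slc2a1* was lower, and the bars of the other 6 genes overlap between states.

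Transcripts of the factor itself were steady. *Hif1a* (rn6 chr6:96811185-96856050, plus strand) was measured at 40.4 TPM in the control and 41.8 TPM in the 6 hour liver of sevoflurane, and at 36.7 and 37.9 TPM in the control and the 6 hour liver of desflurane. The values of the 2 states overlapped, and the highest exceeded the lowest 1.14-fold. The log2 change was 0.05 with each agent, which was smaller than the log2 difference of -0.14 between the controls. *Epas1*, which encodes the HIF-2 alpha subunit, was the more abundant alpha transcript in every library, at 3.32, 4.10, 3.23, and 4.90 times the TPM value of *Hif1a* in the order given above. Its TPM values were 134, 171, 118, and 186, and both 6 hour livers were above both controls (1.28-fold and 1.57-fold against the respective controls), without passing the 2-fold limit. Such an upward separation was general, being shown by 33.3% of the 9993 genes above 2 TPM in at least 1 library and by 26 of 88 other pathway genes. *Hif3a*, whose product can restrain the other alpha subunits, was listed at 0 in the sevoflurane control and was at most 0.144 TPM elsewhere.

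*Arnt*, the common partner of the alpha subunits, had TPM values of 27.3, 30.9, 29.5, and 34.7, and *Vhl*, which recognizes the hydroxylated subunit, had values of 5.67, 6.22, 5.77, and 6.46. Both genes were slightly higher in the 6 hour livers, by 1.10-fold to 1.18-fold against the respective controls. The log2 changes of *Arnt* and *Vhl* were 0.18 and 0.13 with sevoflurane, beside a general shift of 0.05. With desflurane they were 0.23 and 0.16, beside a general shift of 0.12. Both genes thus belong to the 33.3% of genes with this upward separation. *Hif1an*, the asparaginyl hydroxylase that limits HIF activity, had 13.4, 11.0, 13.6, and 13.5, and the prolyl hydroxylase *Egln2* had 40.5, 34.2, 37.9, and 39.5. Neither hydroxylase separated the 6 hour livers from the controls. None of the 12 measured genes of subunits and oxygen sensing (13 listed, and 10 of them above 2 TPM in at least 1 library) passed the rule with either agent.

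*Egln3* (rn6 chr6:75050329-75075795, minus strand), a prolyl hydroxylase that is itself a HIF target and forms a feedback loop, was barely detected. Its TPM values were 0.58, 0.15, 0.10, and 0.32 in the same order, at an average coverage between 0.18 and 1.05 reads per base. The sevoflurane control was the highest library and the desflurane control the lowest, with a 6.11-fold difference between them. Relative to its own control, the sevoflurane value was 3.90-fold lower and the desflurane value 3.30-fold higher. With the control of the other agent, both directions turned, to 1.57-fold higher with sevoflurane and 1.85-fold lower with desflurane, so *Egln3* gives no direction. The pancreatic, Kupffer cell, red cell, T and NK cell, B cell, and pericentral hepatocyte markers were also highest in sum in the sevoflurane control. Among these lists, only the pericentral sum had the same order of all 4 libraries as *Egln3*. The part of these markers in the value of *Egln3* was not tested.

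**Figure D2:**
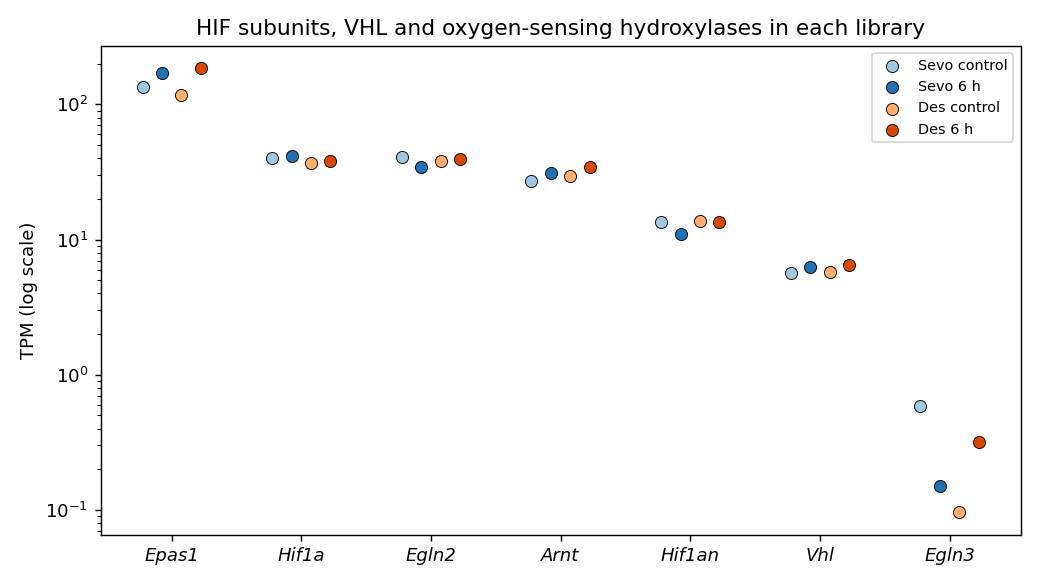
TPM values (logarithmic axis) of HIF subunits, *Vhl*, and oxygen-sensing hydroxylases, with 1 point per library. *Epas1* lies above *Hif1a* in every library, and *Egln3* lies below 1 TPM in all 4.

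The secreted targets did not move together. *Vegfa* (rn6 chr9:17340341-17355680, plus strand), which encodes the main growth factor of blood vessels, was the most abundant member, at 79.9 TPM in the control and 75.1 TPM in the 6 hour liver of sevoflurane, and at 91.8 and 87.1 TPM in those of desflurane. Each 6 hour value was 1.06-fold or 1.05-fold below its own control, and the controls differed from each other 1.15-fold. The desflurane value was 1.09-fold above the sevoflurane control, so its direction depended on the control. With assembled rows in place of annotated ones, the log2 change of *Vegfa* turned from -0.09 to 0.07 with sevoflurane. With desflurane it turned from -0.08 to 0.03. *Adm* (rn6 chr1:175445088-175447259, plus strand), which encodes the vasodilator adrenomedullin, had TPM values of 2.71, 1.62, 2.17, and 2.55. It was 1.67-fold lower with sevoflurane and 1.17-fold higher with desflurane, each against its own control. At a limit of 1.5-fold, *Adm* was the only 1 of 7 members lower with sevoflurane, compared with 8.08% of all genes judged. With the other control, *Adm* was 1.34-fold lower with sevoflurane and 1.06-fold lower with desflurane. The summed TPM of Kupffer cell and macrophage markers showed the same order of the 4 libraries as *Adm*, although *Clec4f*, *Marco*, and *Cd163* singly did not. The summed TPM of T and NK cell markers showed this order too. All 9 Kupffer cell and macrophage markers were lower with sevoflurane (2 of them downregulated, compared with 3.3% of all genes judged), whereas 8 of 9 were higher with desflurane. Of the T and NK cell markers, 8 of 9 were lower with sevoflurane and 6 of 9 were higher with desflurane. Of all genes above 2 TPM in both libraries, 42.9% were lower with sevoflurane and 66.8% were higher with desflurane. The part of either marker list in the values of *Adm* was not tested.

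The glucose targets were expressed at low levels, and neither passed the rule. *Slc2a1* (rn6 chr5:138154680-138182897, plus strand), which encodes the glucose transporter GLUT1, had TPM values of 4.81, 3.54, 4.59, and 4.03. Both 6 hour livers were below both controls, by 1.36-fold with sevoflurane and 1.14-fold with desflurane against the respective controls, and the controls differed by 1.05-fold. Such a separation downward was shown by 13.3% of the 9993 genes with a TPM value higher than 2 in at least 1 library, and by 1 of 7 members. *Pfkfb3* (rn6 chr17:70684134-70711224, plus strand), whose product makes the activator of phosphofructokinase, had TPM values of 2.27, 2.05, 2.76, and 2.51. It was 1.11-fold lower with sevoflurane and 1.10-fold lower with desflurane, compared with a 1.22-fold difference between the controls, and its direction with desflurane turned to 1.11-fold higher once the sevoflurane control was used. With assembled rows put in place of annotated ones, the sevoflurane directions of both *Slc2a1* and *Pfkfb3* also turned, to log2 changes of 0.38 and 1.05.

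*Bnip3* (rn6 chr1:211248098-211265282, minus strand), which marks mitochondria for autophagy and is also raised by fasting through FOXO factors, was among the abundant members. The control and the 6 hour liver of sevoflurane had TPM values of 52.2 and 57.6, and those of desflurane had 42.5 and 71.3. Both 6 hour livers were above both controls. This upward separation was shown by 33.3% of the 9993 genes and by 1 of 7 members, so it is not unusual in these libraries. Against its own control, *Bnip3* was 1.68-fold higher with desflurane and 1.10-fold higher with sevoflurane. The larger value rests in part on the low desflurane control, since with exchanged controls the folds of *Bnip3* were nearly the same, at 1.37 for desflurane and 1.35 for sevoflurane. At a limit of 1.5-fold against the own control, *Bnip3* was the only 1 of 7 members higher with desflurane, compared with 10.4% of all genes judged. Periportal hepatocyte markers lie at the oxygen-rich end of the lobule and include enzymes of the urea cycle and gluconeogenesis. In sum they were also higher in both 6 hour livers than in both controls, as were the stellate cell markers. Of the periportal markers, 5 of 8 were higher with sevoflurane and 7 of 8 with desflurane. Of the stellate cell markers, 5 of 8 were higher with each agent. Over all genes above 2 TPM in both libraries, 57.1% were higher with sevoflurane and 66.8% with desflurane. None of the 8 periportal markers was at 0, and they added up to 3255, 4651, 2300, and 4528 TPM in the order given above. *Pck1* alone had 1079 TPM in the sevoflurane control and 414 TPM in the desflurane control. The 8 pericentral markers added up to 642, 531, 492, and 554, with 4 of 8 higher with sevoflurane and 3 of 8 with desflurane. The part of these marker lists in the values of *Bnip3* was not tested.

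*Ankrd37* (rn6 chr16:49463016-49465905, plus strand), an ankyrin repeat gene that responds strongly to HIF-1 in cultured cells, showed the largest separation between states among the members. The control livers of sevoflurane and desflurane had 0.78 and 0.91 TPM, and the 6 hour livers had 1.90 and 1.81 TPM. The lower of the 6 hour values exceeded the higher of the control values 1.98-fold. The fold was 2.42 with sevoflurane and 1.98 with desflurane against the respective controls, and 2.08 and 2.30 against the control of the other agent, whereas the controls differed 1.16-fold and the 6 hour libraries 1.05-fold. No 6 hour value reached the limit of 2 TPM, and *Ankrd37* therefore did not pass the rule. With a limit of 1 TPM it was the only 1 of 8 members judged that was upregulated by sevoflurane, compared with 2.78% of all genes, and 0 of 8 passed with desflurane, compared with 3.53%. With exchanged controls it passed with both agents, as 1 of 8 members each, compared with 2.91% of genes for sevoflurane and 3.84% for desflurane. At this limit *Ankrd37* and *Bnip3* were the 2 of 8 members above both controls, compared with 32.4% of all genes. *Ankrd37* was below 1 TPM in both controls, so at this limit it was judged only through its 6 hour values. It could not have been counted as lower, and these counts add nothing to its folds.

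The values of *Ankrd37* rest on few reads, with an average coverage of 1.41 and 1.71 reads per base in the controls and 3.22 and 3.05 after 6 hours of sevoflurane and desflurane. Adding 1 to the TPM values reduced its log2 changes from 1.28 and 0.98 to 0.70 and 0.55. The next gene, *Ufsp2*, lies on the opposite strand with 58 bases between the annotated ends (rn6 chr16:49465964-49484960) and had TPM values of 30.4, 27.5, 28.1, and 35.8 in the usual order. Whether the counting used the strand of the reads was not given in the sources used here. *Ufsp2* was lower after sevoflurane than in either control and higher after desflurane than in either control, and its part in the values of *Ankrd37* was not tested. *Ndrg1* (rn6 chr7:107734326-107775701, minus strand), a stress response gene that is raised by hypoxia in many cell types, had TPM values of 2.84, 2.81, 2.69, and 2.76. The highest of these values exceeded the lowest 1.05-fold, the smallest spread of any member, and its log2 changes of -0.01 and 0.04 were below the log2 difference of -0.07 between the controls.

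**Figure D3:**
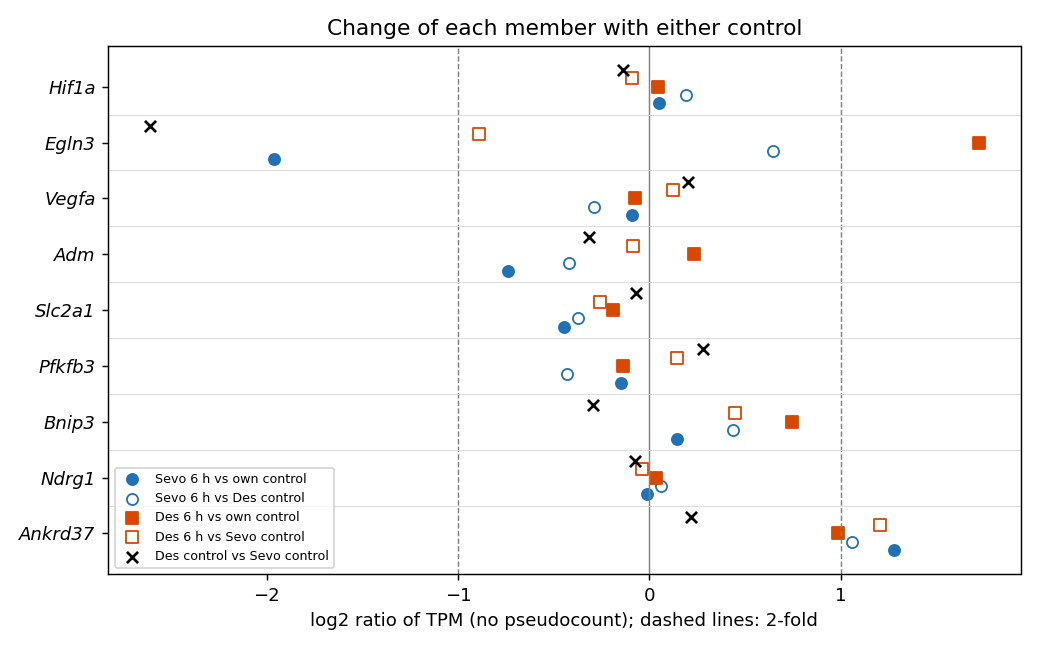
Log2 ratio of TPM values (horizontal axis, no pseudocount) for each measured member, with each 6 hour library compared with its own control (filled) and with the other control (open), and the 2 controls compared with each other (crosses). All 4 points of *Ankrd37* lie between 0.98 and 1.28, whereas the points of *Egln3* lie on both sides of 0.

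According to the TPM scale, the members fell into separate levels. *Vegfa* was followed by *Bnip3* and *Hif1a* within every library, and the lowest value of *Bnip3* (42.5) was next to the highest of *Hif1a* (41.8). *Slc2a1* came next at 3.54 to 4.81 TPM. *Ndrg1*, *Pfkfb3*, and *Adm* lay between 1.62 and 2.84 and overlapped, so their order is not resolved. *Ankrd37* ranged from 0.78 to 1.90 and *Egln3* from 0.10 to 0.58. Directly between the 6 hour livers, 0 of 7 members differed more than 2-fold, compared with 2.76% of 9829 genes that were higher with desflurane and 1.17% that were lower. Between the controls the count was also 0 of 7, compared with 1.17% of genes in each direction.

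The other genes of the pathway were examined as a list of 121 measured genes in 8 groups, chosen with earlier results of these data known. Among the 88 genes judged with sevoflurane, 5 were upregulated and 1 was downregulated, compared with 2.23% and 3.3% of all genes. Among the 85 genes judged with desflurane, 6 were upregulated and 3 downregulated, compared with 2.79% and 1.48%. The median log2 change over the genes judged was 0.08 with sevoflurane and 0.07 with desflurane, beside 0.05 and 0.12 over all genes. In all, 12 genes passed with either agent against its own control, and 4 of them (*Zfp36*, *Igfbp1*, *Angptl4*, and *Plin2*) passed with at least 1 agent against both controls. The remaining 8 depended on the control and are named here after their values were seen. With sevoflurane these were *Ddit4*, *Wsb1*, and *Vldlr* (upregulated) and *Cited2* (downregulated). With desflurane they were *Insig2* and *Mt1* (upregulated) and *Lox*, *Car2*, and again *Ddit4* (downregulated).

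*Zfp36*, which encodes an mRNA-destabilizing protein that limits inflammation, was the only gene of the list upregulated by both agents at about the same fold against both controls. Its TPM values were 43.6 and 97.4 in the control and the 6 hour liver of sevoflurane and 41.0 and 105 in those of desflurane, with folds of 2.24 and 2.55 against the respective controls. *Igfbp1*, which encodes a secreted binding protein of insulin-like growth factors and is repressed by insulin, had 35.1, 74.7, 7.94, and 136. It was upregulated 2.13-fold by sevoflurane and 17.2-fold by desflurane. The controls differed 4.42-fold, and against the control of the other agent the folds were 9.41 and 3.89. *Angptl4*, an inhibitor of lipoprotein lipase, had 23.3, 34.4, 26.7, and 71.7 TPM and was upregulated by desflurane (2.68-fold), whereas its fold with sevoflurane was 1.48. *Plin2*, which coats lipid droplets, had 107, 208, 134, and 276 TPM and was upregulated by desflurane (2.07-fold), with a fold of 1.94 with sevoflurane. The 4 genes were chosen for passing against both controls, so their separation from the controls follows in part from that choice.

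*Ddit4*, which encodes the mTOR inhibitor REDD1, passed the rule in opposite directions. From the sevoflurane control to the 6 hour liver it went from 3.34 to 10.2 TPM, and for desflurane from 5.94 to 2.95 TPM. The sevoflurane liver was above both controls and the desflurane liver below both. *Cited2*, which competes with HIF for its coactivator, had 32.9, 15.3, 22.4, and 21.5 TPM and was downregulated by sevoflurane against its own control.

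Of 26 glycolysis genes, 17 were above 2 TPM in both states of each comparison, and none passed the rule with either agent. In these 17, the median log2 change was 0.15 for sevoflurane and -0.02 for desflurane. The highest values, named here after they were seen, were those of *Eno1* with sevoflurane (log2 change of 0.62) and *Gpi* with desflurane (0.86). *Ldha*, which encodes a lactate dehydrogenase subunit classically raised by HIF-1 and is named here for that reason, had TPM values of 500, 692, 610, and 561, with log2 changes of 0.47 for sevoflurane and -0.12 for desflurane. The 20 vessel and secreted targets had the largest median with desflurane (0.52 over the 10 genes higher than 2 TPM in both states), compared with -0.01 with sevoflurane. The medians over all genes higher than 2 TPM in both states were 0.12 and 0.06. With exchanged controls, the group medians were 0.36 with desflurane and 0.16 with sevoflurane, beside 0.10 and 0.07 over all genes. *Igfbp1* and *Angptl4* were the only 2 genes of the group that passed. The 8 measured endothelial markers (of 9 listed, none at 0) include *Flt1*, *Kdr*, and *Tek*, which also belong to this group. They added up to 292, 282, 278, and 321 TPM in the usual order. With sevoflurane 4 of 8 were higher and with desflurane 7 of 8, compared with 57.1% and 66.8% of all genes above 2 TPM in both libraries. The part of these markers in the group medians was not tested.

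**Figure D4:**
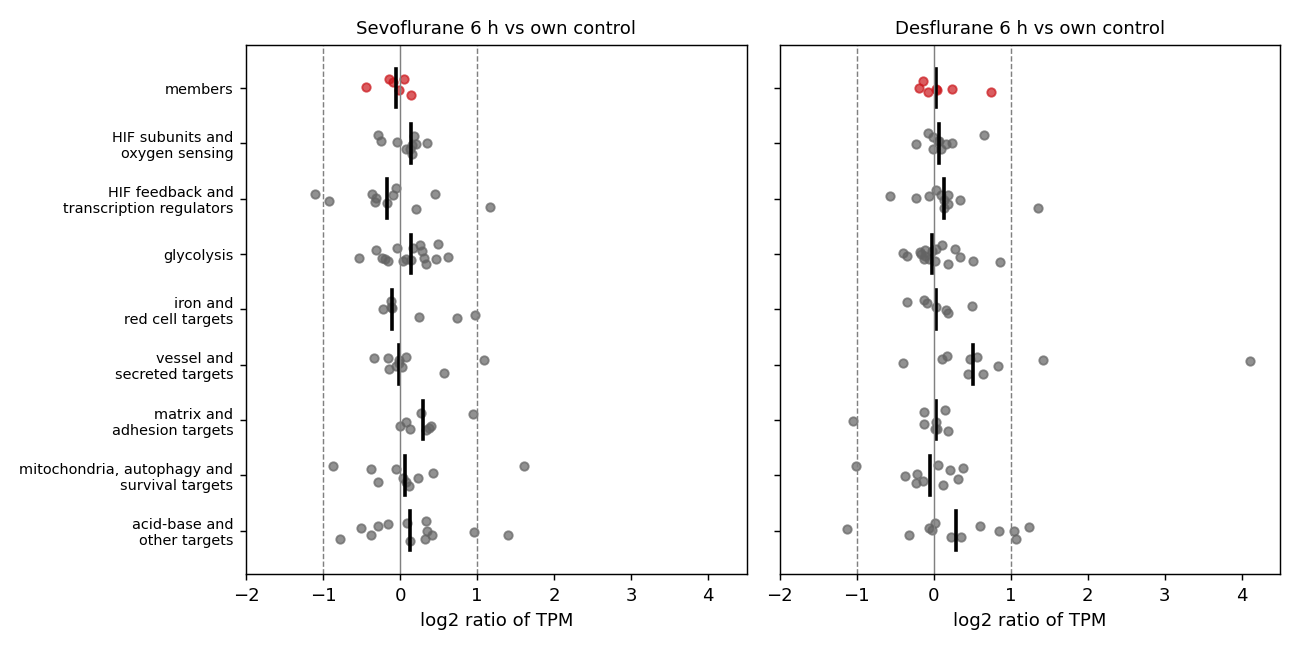
Log2 ratio of TPM values (horizontal axis) of each 6 hour library to its own control for members (red) and the other genes of the pathway by group (grey), restricted to genes above 2 TPM in both libraries. Vertical bars are group medians and dashed lines mark 2-fold, and the point at 4.10 with desflurane is *Igfbp1*.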

How the data were processed

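RNA-seq libraries of 4 rat livers, with 1 rat for each condition, were analysed, and the sample labels gave the condition of each. The authors trimmed the reads with sickle, mapped them to rn6 with HISAT2, sorted them with SAMtools, and ran StringTie with the rn6 refGene annotation. The deposited TPM values are a signal scaled by StringTie to a sum of 1000000 over assembled transcripts, with annotated genes listed additionally on that scale. The deposited average coverage is a signal over exons, not normalized for library size, and the deposited FPKM values were normalized for library size by the authors' StringTie run. The labels and the methods name different Illumina library kits. Annotated rows longer than 200 base pairs were used, and rows sharing a symbol were added up. Each measured member had 1 row, and no other annotated gene overlapped it. The amount of aligned sequence follows from the ratio between FPKM and coverage (median over rows). Counting intervals need read counts, which are not part of these tables, and were not calculated.

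A gene passed when the larger TPM value exceeded 2 and was more than 2-fold the smaller, without a pseudocount. Genes were judged when at least 1 of the 2 libraries exceeded this limit. With 1 library per condition, nothing was tested statistically. The members, the 8 pathway groups, and the 12 marker lists (hepatocyte, endothelial, Kupffer cell, stellate cell, cholangiocyte, red cell, neutrophil, T and NK cell, B cell, pancreatic acinar, pericentral, and periportal) were chosen with earlier results of these data known. Of 128 pathway symbols, 5 were not matched, 2 repeated a gene under an older symbol, and 3 were matched by an older symbol in the RefSeq table. Genes named in the text are the members, pathway genes that passed with at least 1 agent against both controls, and 6 HIF regulators (*Epas1*, *Hif3a*, *Arnt*, *Vhl*, *Hif1an*, and *Egln2*), and other genes are marked. Of the remaining marker lists, summed TPM values in the order sevoflurane control, sevoflurane, desflurane control, and desflurane were 116033, 111374, 109312, and 125544 for hepatocytes, 312, 342, 328, and 356 for stellate cells, 11.7, 12.7, 17.3, and 11.2 for cholangiocytes, 3.21, 2.97, 4.83, and 1.74 for neutrophils, 15.1, 5.29, 9.33, and 9.49 for T and NK cells, 6.17, 2.33, 3.20, and 3.15 for B cells, and 47.4, 18.5, 15.2, and 15.7 for pancreatic acinar cells. Python 3.11.15 was used with numpy 2.4.6, pandas 2.3.3, and matplotlib 3.10.9. In simulated data of 16982 genes for each agent against its own control, the rule was tested on 200 changed genes and recovered 200, which checks the calculation only, since only small random noise was simulated.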

Additional observations from a re-analysis of the deposited data

Results flagged for a closer look

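Among the 27 genes reported here with a change against the respective control, 9 had opposite signs with the 2 agents. Each agent has 1 library per state, and these differences were not tested. Among the members, the log2 change with desflurane minus that with sevoflurane was 3.69 for *Egln3*, 0.97 for *Adm*, and 0.048 for *Ndrg1*. The value of *Egln3* rests on TPM values below 1, and both of its directions turned with the control of the other agent. *Adm* was lower with both agents when the controls were exchanged. The value of *Ndrg1* is below its log2 difference of -0.07 between the controls in size. Among the other genes of the pathway, the difference was 0.31 for *Egln2*, 1.57 for *Mt1*, -1.45 for *Car2*, -1.58 for *Vldlr*, -1.99 for *Lox*, and -2.62 for *Ddit4*.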

How the results depend on the processing

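No paired analysis was possible because each condition has 1 library. Leaving out a replicate was not possible for the same reason, and the control of the other agent is the nearest check. For the members, the count upregulated by sevoflurane was 1 instead of 0 with a limit of 1 TPM, without a TPM limit, and with assembled rows added to or put in place of annotated rows (the last chosen after seeing the data), and the count downregulated was 1 without a TPM limit, at 1.5-fold, and with assembled rows added. With desflurane, 1 member was upregulated without a TPM limit, at 1.5-fold, and with assembled rows added. Assembled rows repeat annotated ones (*Bnip3* has identical TPM values in both), so adding them counts reads again. A gene split into separate assembled rows has their TPM values added up, so these counts also depend on the splitting. The count of members above both controls was 2 instead of 1 with a limit of 1 TPM, without a limit, and with assembled rows added. The count below both controls was 0 with a limit of 5 TPM or with either use of assembled rows, 2 after median-of-ratios scaling, and 3 with FPKM for the fold. For the pathway list, without a TPM limit 13 and 9 genes were upregulated and downregulated by sevoflurane (5 and 1 otherwise) and 14 and 8 by desflurane (6 and 3 otherwise). At 1.5-fold, the counts were 10 and 4 with sevoflurane, and 12 were upregulated by desflurane. At 3-fold, 1 and 0 remained for each agent. With the control of the other agent, 2 and 2 genes passed with sevoflurane, and 0 were downregulated by desflurane. A limit of 1 TPM gave 2 genes downregulated by sevoflurane, and a pseudocount of 1 TPM or the mean of the 2 controls gave 1 downregulated by desflurane. Where no construction shows it, the cause was not tested. Of 18 log2 changes of members (9 members, 2 agents), 8 changed sign with exchanged controls, none of them for *Ankrd37*, *Bnip3*, or *Slc2a1*. With sevoflurane, *Pfkfb3* turned from -0.15 to 0.55 with assembled rows added and 1.05 with assembled rows in place, and *Slc2a1* from -0.44 to 0.02 and 0.38. Both genes were split into separate assembled rows in the 6 hour sevoflurane library but not in its control. The sums of these rows give no direction. Assembled rows in place of annotated ones also turned *Vegfa* with both agents (to 0.07 with sevoflurane and 0.03 with desflurane). *Ndrg1* turned with desflurane, from 0.04 to -0.13. Over all genes, desflurane gave 275 upregulated and 146 downregulated genes (65.3% upregulated) and 197 and 196 (50.1%) after median-of-ratios scaling. An average coverage of at most 1.05 reads per base limits what the values of *Egln3* can show.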

Other observations

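StringTie also assembled transcripts without a gene name from the same reads, and these rows entered comparisons only where assembled rows are named. A row assembled on the strand of *Ankrd37* was present in both 6 hour libraries, with TPM values of 1.76 after sevoflurane and 1.81 after desflurane, and in neither control. The desflurane control instead held a row on the opposite strand with a TPM value of 0.82 that overlapped the beginning of *Ankrd37*. A row on the strand of *Egln3* was assembled only in the sevoflurane control. For *Hif1a*, *Vegfa*, *Bnip3*, *Ndrg1*, *Adm*, *Pfkfb3*, and *Slc2a1*, rows on the same strand were present in all 4 libraries.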
